A study of Mus musculus with 4 samples.

Results

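The 9 genes described here encode the granzymes *Gzma*, *Gzmb*, *Gzmc*, *Gzmk* and *Gzmm*, perforin (*Prf1*), and the granule proteins serglycin (*Srgn*), *Nkg7* and cathepsin W (*Ctsw*). The rule lists them by name as the contents of cytotoxic granules and uses no measured value, though earlier results of these data were known when it was written, and they are 9 of the 19339 genes listed for each library. RNA came from TCRαβ+CD8αα+ intraepithelial lymphocytes (IELs) of the small intestine of C57BL/6 mice, sorted as CD45+CD4-TCRβ+CD8α+CD8β- cells, with 3 mice pooled in each library and no age given in the labels. There were 2 control libraries from Kdm6b fl/fl mice and 2 libraries labelled Kdm6b-deficient from Kdm6b fl/fl-CD4Cre mice, and both groups carried replicate numbers 1 and 3. All mice had the loxP-flanked *Kdm6b* alleles, and the groups differed in the Cre transgene, which the *CD4* promoter drives in T cells from an early thymic stage, so that other cells in the gut kept *Kdm6b*. *Kdm6b*, which encodes a demethylase of histone H3 lysine 27, had 16.5 and 16.0 FPKM in the control group against 18.2 and 11.1 FPKM with the Kdm6b-deficient label, so the whole-gene value did not separate the groups. Which exons the loxP sites flank is not given in the sources used here. Values are FPKM, fragments divided by the length of the transcript and by the fragments the library had mapped, and are always given in the order control replicate 1, control replicate 3, Kdm6b-deficient replicate 1 and Kdm6b-deficient replicate 3.

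Cytotoxic lymphocytes kill by releasing preformed granules into the contact with a target cell. Perforin makes pores in the target membrane, the granzymes are serine proteases that enter through them and cleave proteins of the target, and serglycin is the proteoglycan core on which granzymes and perforin are packed. IELs that carry CD8αα are known for holding large amounts of granzymes, which conventional T cells of lymph nodes and spleen make mainly after activation.

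The T cell genes and the gated markers were as the sort would give, apart from some *Cd4*. *Cd3e* was between 304 and 505 FPKM, *Cd8a* between 280 and 463, *Cd8b1* between 0 and 1.64 and *Cd4* between 3.17 and 30.6. The depth was estimated at between 11040000 and 13320000 fragments a library, by taking the median of the lowest FPKM values, times transcript length, as 1 fragment. That estimate depends on the cut-offs set for low values. The fragments behind a low value were estimated from it. Libraries differed in RNA of epithelial cells: the geometric mean of 25 epithelial markers, set to 1 in control replicate 1, was 3.07 in control replicate 3, 2.58 in Kdm6b-deficient replicate 1 and 7.66 in Kdm6b-deficient replicate 3. The geometric mean of *Cd3e*, *Cd3d*, *Cd3g*, *Cd247* and *Ptprc* ran the other way, at 1, 0.829, 0.832 and 0.554. In bulk RNA, fewer cells of a type and less RNA of a gene in each cell cannot be told apart.

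The 9 genes lie on 5 chromosomes of GRCm38. *Gzma* (chr13:113093824-113100981, minus strand) and *Gzmk* (chr13:113171630-113180965, minus strand) are neighbours with 70.7 kb between them. *Gzmb* (chr14:56258836-56262334, minus strand) and *Gzmc* (chr14:56231397-56241647, minus strand) belong to the granzyme cluster of chromosome 14, with 17.2 kb between them. *Gzmm* (chr10:79689020-79695261), *Prf1* (chr10:61297751-61304684) and *Srgn* (chr10:62493833-62527445) share a chromosome without being close. *Nkg7* is at chr7:43437138-43438246 and *Ctsw* at chr19:5465043-5468628. The promoters of the 3 most abundant members in the control libraries are printed as the 250 bases before the start of the gene, 5′ to 3′ on the strand of the gene, from RefSeq on GRCm38.p6, because *Gzmb* is the member on which the comparison of groups turns and *Gzma* and *Nkg7* are its abundant companions. Capitals mark a Runx motif (TGTGGT, or ACCACA on the other strand), a T-box motif (TCACAC, or GTGTGA) and an AP-1 motif (TGANTCA, which reads the same on both strands).
*Gzma*, chr13:113100982-113101231: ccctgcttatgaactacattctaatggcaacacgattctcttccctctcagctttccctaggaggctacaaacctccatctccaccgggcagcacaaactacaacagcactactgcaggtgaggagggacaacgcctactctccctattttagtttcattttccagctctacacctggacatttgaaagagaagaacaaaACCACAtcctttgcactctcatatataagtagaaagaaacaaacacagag
*Gzmb*, chr14:56262335-56262584: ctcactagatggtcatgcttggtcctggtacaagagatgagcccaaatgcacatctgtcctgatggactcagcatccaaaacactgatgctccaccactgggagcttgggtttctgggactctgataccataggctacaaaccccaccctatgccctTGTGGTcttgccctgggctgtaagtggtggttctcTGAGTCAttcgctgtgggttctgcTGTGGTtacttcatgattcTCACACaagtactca
*Nkg7*, chr7:43436888-43437137: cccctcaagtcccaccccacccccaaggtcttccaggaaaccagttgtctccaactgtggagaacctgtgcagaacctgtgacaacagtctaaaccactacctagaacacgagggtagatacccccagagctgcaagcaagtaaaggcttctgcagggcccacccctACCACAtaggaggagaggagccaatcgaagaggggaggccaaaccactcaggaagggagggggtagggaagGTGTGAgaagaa

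In the *Gzmb* window the Runx letters stood 93 and 34 bases before the start, the AP-1 letters 58 bases before it and the T-box letters 15 bases before it, with no overlap among them. *Gzma* had a Runx match 50 bases before the start, and *Nkg7* a Runx match at 83 and a T-box match at 12. A window was found for 8 of the 9 members, all except *Ctsw*. The Runx letters were in a window of 7 of those 8 members, against 14.05% of 32851 promoter windows of the same length, the T-box letters in 4 of 8 (12.29% of windows) and the AP-1 letters in 1 of 8 (6.749% of windows), that of *Gzmb*. *Srgn* and *Gzmm* have 2 windows each, so by window the Runx count was 7 of 10. These matches describe letters in the window and not bound sites. The motifs were chosen after these sequences were seen, so the shares beside the counts are no test of enrichment.

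Granule transcripts were among the most abundant in these cells. Summed over the 9 genes, FPKM were 25612, 17282, 17068 and 12534, which were 4.43%, 2.81%, 2.83% and 1.94% of all FPKM in the library. *Gzma* alone made up 3.01%, 1.80%, 1.88% and 1.37%, and ranked 1, 2, 2 and 3 among all genes. In the control libraries the order by mean FPKM was *Gzma* (14226 ± 4475, SD, n = 2), *Gzmb* (2933 ± 629), *Nkg7* (2334 ± 482), *Srgn* (1329 ± 189), *Ctsw* (578 ± 88.4), *Gzmc* (13.4 ± 1.22), *Prf1* (13.3 ± 7.83) and *Gzmm* (0.975 ± 0.615), with *Gzmk* at 32.2 and 9.05. The ranges of *Gzmb* and *Nkg7* over the control libraries overlapped, although *Gzmb* was 1.26 and 1.25 times *Nkg7* within each, and *Gzmk*, *Gzmc* and *Prf1* did not differ beyond their spread. The members thus fell into 5 genes above 100 FPKM in every library and 4 genes far below them, with perforin among the low ones.

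**Figure D1:**
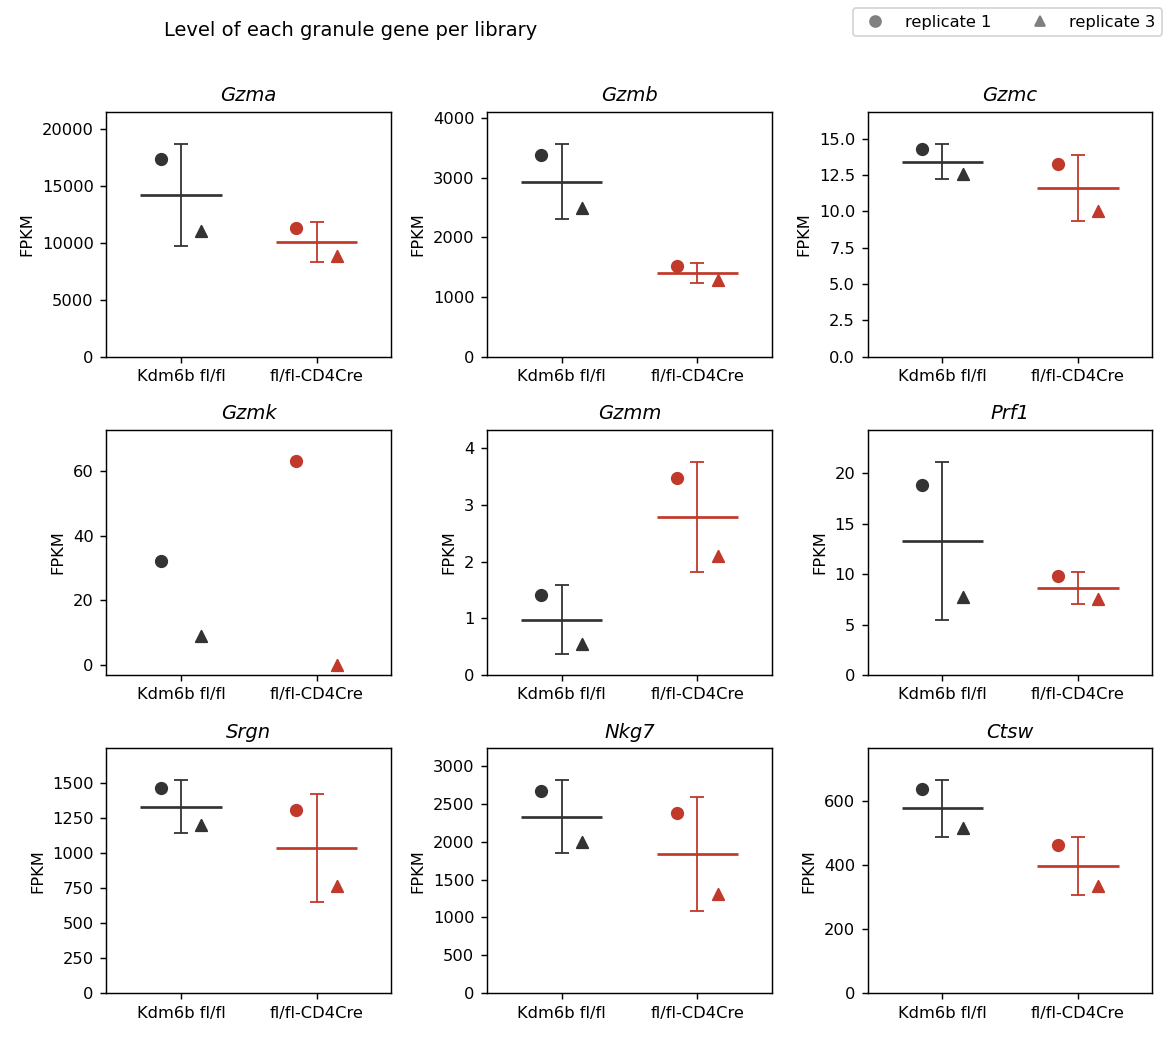
FPKM of each of the 9 granule genes on a linear axis of its own, with Kdm6b fl/fl (control) libraries in black and Kdm6b fl/fl-CD4Cre libraries in red, circles for replicate 1, triangles for replicate 3, lines for group means and bars for the SD (n = 2), apart from *Gzmk*, which has points only. In every panel the triangle lies below the circle of its group, and the groups are apart for *Gzmb*, *Ctsw* and *Gzmm*.

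The comparison of the groups asked whether granule transcripts of TCRαβ+CD8αα+ IELs differ between the libraries labelled Kdm6b-deficient and the control libraries. *Gzmb*, the granzyme that cleaves after aspartate and can activate caspases in the target cell, was the member whose groups lay furthest apart among the abundant genes. It had 3378, 2488, 1515 and 1279 FPKM. Both libraries labelled Kdm6b-deficient were below both control libraries, and even the closest pair, control replicate 3 and Kdm6b-deficient replicate 1, was apart by 0.71 on the log2 scale. The group means were 2933 ± 629 and 1397 ± 167 FPKM (SD, n = 2 each), and the log2 fold change on log2(FPKM + 1) was −1.06 (SE 0.29, 95% interval −1.79 to −0.33), a 2.08-fold lower level. With limma and Benjamini-Hochberg adjustment over all 12009 genes tested the adjusted p was 0.755, so *Gzmb* was not called. That fit had no term for the replicate number, and a fit with such a term is given at the end. The rank of *Gzmb* among all genes went from 9 and 18 in the control libraries to 26 and 46.

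*Gzma*, a granzyme that cleaves after basic residues, had 17390, 11061, 11316 and 8837 FPKM. The high value of control replicate 1 stood alone, and the other 3 libraries were closer to each other, with control replicate 3 just below Kdm6b-deficient replicate 1, so the groups overlapped. The log2 fold change was −0.47 (SE 0.48, 95% interval −1.67 to 0.73, limma adjusted p = 0.824). A 2-fold difference in *Gzma* is inside that interval.

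The 3 other granzymes were low. *Gzmc*, of the same gene cluster as *Gzmb*, had 14.3, 12.6, 13.3 and 10.02 FPKM, and its groups overlapped (log2 fold change −0.20, SE 0.26, limma adjusted p = 0.854). Of its 50-base stretches, 4.14% also occur in a transcript of *Gzme*, *Gzmg* or *Gzmd*, while the other 8 members shared none with another gene. The cluster genes *Gzmf* (0.35, 0.09, 0 and 0 FPKM) and *Gzmn* (0, 0.08, 0 and 0 FPKM) were at the floor and below the filter, so of the 4 cluster genes with values *Gzmb* carried nearly all the signal.

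*Gzmk*, which lies beside *Gzma* and cleaves after basic residues too, varied most among the members. It had 32.2, 9.05, 63.1 and 0 FPKM, the last being listed at 0. Its highest and lowest values were in the same group, both replicate 1 libraries were high, and the log2 fold change of −1.19 (SE 1.89, 95% interval −5.92 to 3.54, limma adjusted p = 0.882) became 1.81 without Kdm6b-deficient replicate 3. That value rests on the library at 0 and on the pseudocount of 1, since it was −2.77 with a pseudocount of 0.1 and −4.43 with 0.01, while the mean FPKM of the Kdm6b-deficient group was 153% of the control mean. *Cd4*, which the sort gated out, was also high in both replicate 1 libraries, at 30.6, 10.1, 30.5 and 3.17 FPKM. The part of CD4+ cells in the *Gzmk* values was not tested.

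*Gzmm*, a granzyme that cleaves after methionine, was the only member with a positive log2 fold change. It had 1.41, 0.54, 3.47 and 2.10 FPKM, which correspond to about 24.2, 8.92, 59.5 and 29.9 fragments. Both libraries labelled Kdm6b-deficient were above both control libraries, with a log2 fold change of 0.95 (SE 0.40, 95% interval −0.05 to 1.95, limma adjusted p = 0.755). At 5 FPKM in at least 2 libraries, a stricter filter, *Gzmm* was no longer among the genes tested.

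*Prf1*, the pore-forming protein without which granzymes do not enter the target, had 18.8, 7.76, 9.79 and 7.51 FPKM. Control replicate 1 was the high library, control replicate 3 was close to both libraries labelled Kdm6b-deficient, and the groups overlapped. The log2 fold change was −0.46 (SE 0.44, 95% interval −1.56 to 0.64, limma adjusted p = 0.813), and it became 0.13 without control replicate 1. On the per-length scale *Gzmb* FPKM were above *Prf1* FPKM in every library, by 2 orders of magnitude.

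*Srgn*, the proteoglycan that packs the granule, had 1462, 1195, 1307 and 761 FPKM. Only Kdm6b-deficient replicate 3 was low, and the groups overlapped (log2 fold change −0.41, SE 0.33, limma adjusted p = 0.787, and −0.016 without that library). *Nkg7*, a granule membrane protein that takes part in degranulation, had 2674, 1993, 2378 and 1303 FPKM. It followed the same order of libraries as *Srgn*, with Kdm6b-deficient replicate 1 between the control libraries. Its log2 fold change was −0.39 (SE 0.38, 95% interval −1.35 to 0.57, limma adjusted p = 0.816), and 0.043 without Kdm6b-deficient replicate 3. *Nkg7* was below *Gzmb* in both control libraries and above it in both libraries labelled Kdm6b-deficient.

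*Ctsw*, a cysteine protease found mainly in cytotoxic T and NK cells, had 640, 515, 463 and 334 FPKM. Both libraries labelled Kdm6b-deficient were below both control libraries, though control replicate 3 and Kdm6b-deficient replicate 1 were apart by only 0.15 on the log2 scale. The means were 578 ± 88.4 and 398 ± 90.9 FPKM (SD, n = 2 each), and the log2 fold change was −0.55 (SE 0.25, 95% interval −1.16 to 0.07, limma adjusted p = 0.755). It was −0.31 without Kdm6b-deficient replicate 3 and −0.12 with the libraries scaled to the T cell genes.

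**Figure D2:**
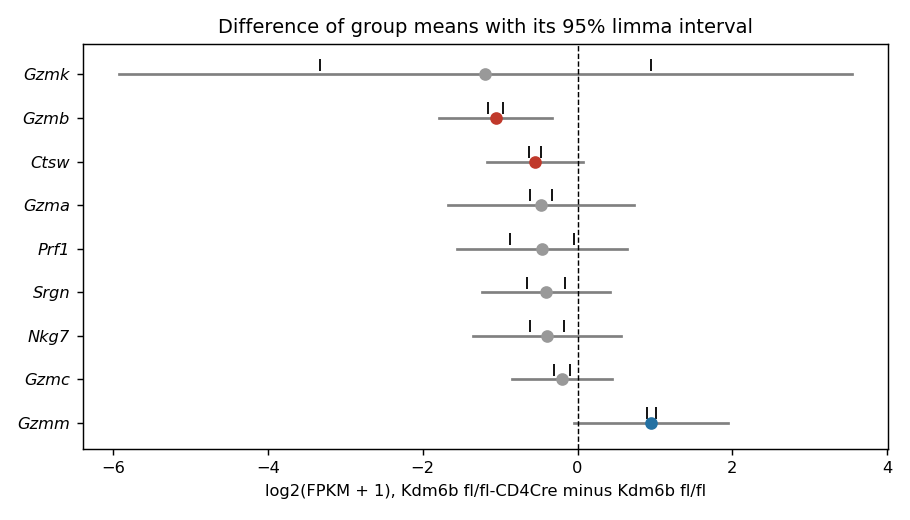
Difference of the group means on log2(FPKM + 1), Kdm6b fl/fl-CD4Cre minus Kdm6b fl/fl, as a point for each granule gene with a bar for its 95% interval from limma and black ticks for the differences within replicate number 1 and within replicate number 3, and with red or blue points for genes lower or higher in both Kdm6b-deficient libraries. The interval of *Gzmb* runs from −1.79 to −0.33, and the intervals of the other 8 genes include 0.

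All 9 members passed the filter of 1 FPKM in at least 2 libraries. In the fit without a replicate term 0 of them were called at an adjusted p under 0.05, as were 0 (0.0%) of the 12009 genes tested. At an unadjusted p under 0.05 limma had 1 member, *Gzmb*, and 642 genes (5.35%) in all, of which 186 (1.55%) were lower. No tool other than limma was run. *Gzmb* and *Ctsw* were lower in both libraries labelled Kdm6b-deficient, which held for 18.6% of all genes, *Gzmm* was higher in both (18.4%), and 6 members overlapped. The 2 of 9 lower members are therefore near the background share. The log2 fold change was negative for 8 of 9 members, beside 5993 of all 12009 genes, with a median of −0.46 beside a median of 0.00097 over all genes tested. The 5 T cell genes were all negative too, with a median of −0.37. With the libraries scaled to these T cell genes the members' median was −0.048. It was −0.78 without Kdm6b-deficient replicate 1 and −0.016 without Kdm6b-deficient replicate 3, and with 1 library fewer more genes have groups that do not overlap. The members lower in the Kdm6b-deficient group numbered 8 without Kdm6b-deficient replicate 1 (39.8% of the genes tested in that fit), 7 without control replicate 3 (36.8%), 2 without Kdm6b-deficient replicate 3 (30.5%) and 2 without control replicate 1 (28.6%). A log2 fold change below −1 was found for *Gzmb*, for *Gzmk* by its library at 0, and for 53 (0.441%) of all genes, and above 1 for 0 members and 744 (6.2%) of all genes.

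The members followed the replicate number in both groups. All 9 had less FPKM in control replicate 3 than in control replicate 1, and all 9 had less in Kdm6b-deficient replicate 3 than in Kdm6b-deficient replicate 1, which held in both groups for 34.5% of the genes tested. The step from replicate 1 to the lower replicate 3 in the control group was 0.65 on the log2 scale for *Gzma*, larger than the 0.47 between the group means. In the Kdm6b-deficient group the *Gzma* step was 0.36, smaller than that 0.47. For *Gzmb* the steps were 0.44 in the control group and 0.24 in the Kdm6b-deficient group, both smaller than the 1.06 between the group means. Replicate 3 of each group was also the library with more epithelial RNA and fewer T cell transcripts, and the part of these in the members' values was not tested.

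**Figure D3:**
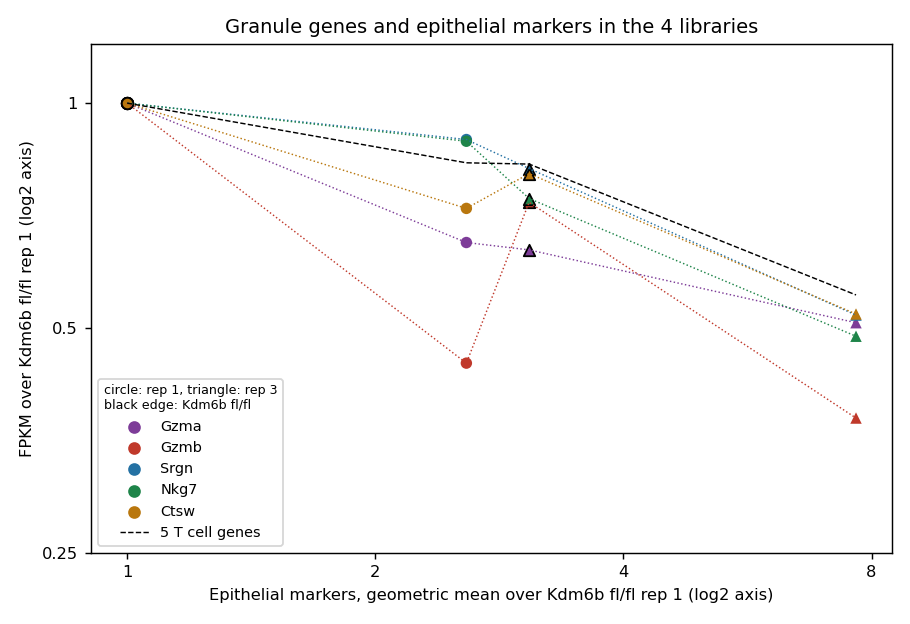
Level of the 5 abundant granule genes and of the 5 T cell genes against the epithelial markers, all set to 1 in control (Kdm6b fl/fl) replicate 1, on log2 axes, with black edges for the control libraries, circles for replicate 1, triangles for replicate 3 and lines joining the libraries in order of the epithelial markers. At similar epithelial levels, 2.58 and 3.07, *Gzmb* was lower in Kdm6b-deficient replicate 1 than in control replicate 3, by 0.71 on the log2 scale.

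All 25 epithelial markers had a positive log2 fold change (median 1.28), 4 of them were higher in both libraries labelled Kdm6b-deficient (18.4% of all genes), none was listed at 0, and their summed FPKM were 1500, 4684, 4372 and 11537. Control replicate 3 and Kdm6b-deficient replicate 1 were the libraries most alike in these markers. Between these libraries alone *Gzmb* was lower in the library labelled Kdm6b-deficient by 0.71 and *Ctsw* by 0.15 on the log2 scale, with no test. The other 7 members were higher there, from 0.033 for *Gzma*, 0.072 for *Gzmc*, 0.13 for *Srgn*, 0.25 for *Nkg7* and 0.30 for *Prf1* to 1.54 for *Gzmm* and 2.67 for *Gzmk*. Of the 12009 genes tested, 6005 were lower in that library. With the epithelial level as a covariate, which leaves 1 residual degree of freedom, the log2 fold change was −0.77 for *Gzmb* (limma adjusted p = 0.205), −0.21 for *Ctsw* and −0.045 for *Gzma*, positive for the other 6 members, and 1.45 for *Gzmm*.

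Markers of other cells that can hold granule proteins were low, apart from *Kit*, *Klrb1c* and some of the myeloid and B cell genes. Among 7 mast cell and basophil markers with values, *Cpa3* stayed at or below 1.54 FPKM, *Ms4a2* was listed at 0 in 3 libraries, and *Mcpt1* had 1.03, 0, 1.58 and 4.52 FPKM. *Kit*, which is in that list, was at 65.2, 67.8, 36.0 and 43.2 FPKM, and lower in both libraries labelled Kdm6b-deficient. The summed FPKM of the list were 67.9 or below in each library. Of 5 NK and ILC1 markers, *Ncr1* had 0.26, 0.16, 2.48 and 0.13 FPKM, *Eomes* was at or below 0.16 FPKM and *Khdc1a* at or below 0.08. *Klrb1c*, which encodes NK1.1, had 24.2, 17.1, 27.2 and 17.8 FPKM and made up most of the summed level of 20.5 to 32.3 FPKM, and *Itga2* was between 2.45 and 4.45. Neither separated the groups, and the part of NK and ILC1 cells in the members' values was not tested. All 8 myeloid markers had positive log2 fold changes, 5 were higher in both libraries labelled Kdm6b-deficient (18.4% of all genes), and their summed FPKM were 451, 311, 507 and 717, with *Lyz2* at 365, 253, 396 and 626. The B cell marker *Cd79b* was at 33.5, 30.8, 32.8 and 28.4 FPKM. Of 5 γδ T cell markers listed only *Sox13* had values, at or below 1.65 FPKM. That gene alone cannot give the level of γδ T cells, and their part in the members' values was not tested.

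Set against the geometric mean of the 5 T cell genes (437, 362, 363 and 242 FPKM), *Gzmb* was at ratios of 7.73, 6.87, 4.17 and 5.29. Both ratios in the libraries labelled Kdm6b-deficient were below both control ratios, at 64.4% of the control level, and Kdm6b-deficient replicate 3 was here above Kdm6b-deficient replicate 1. The ratio of *Ctsw* was 1.47, 1.42, 1.27 and 1.38, lower in both by a small margin (91.9% of control). *Gzma* was at 39.8, 30.6, 31.1 and 36.5, *Srgn* at 3.35, 3.30, 3.60 and 3.15, and *Nkg7* at 6.12, 5.51, 6.54 and 5.39. These 3 ratios overlapped between the groups, with mean log2 differences of −0.048, 0.017 and 0.033. On this scale *Gzmc* and *Gzmm* were above the control libraries in both, while *Gzmk* overlapped, at 0.0736, 0.0250, 0.174 and 0. Scaling the libraries to these T cell genes moved the median of all genes to 0.38. The log2 fold change of *Gzmb* was then −0.63 (limma adjusted p = 0.645). Relative to that median it was −1.02, which largely undoes the scaling, since the unscaled value was −1.06. With the scaling 2 of 9 members were lower in both libraries, against 2.35% of all genes, and 2 of 9 higher, against 37.5%. The part of a lower share of T cells in the FPKM differences was not tested beyond this scaling.

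Ratios among the 5 abundant members need no scaling between libraries. *Gzmb* over *Gzma* was 0.194, 0.225, 0.134 and 0.145, which was 66.6% of the control level in the libraries labelled Kdm6b-deficient. *Gzmb* over *Nkg7* was 1.26, 1.25, 0.637 and 0.982 (63.0% of control). *Gzmb* over *Srgn* was 2.31, 2.08, 1.16 and 1.68 (63.7%), and over *Ctsw* 5.28, 4.83, 3.28 and 3.83 (70.1%). In each of the 4 ratios both control libraries were above both libraries labelled Kdm6b-deficient, and in the 6 ratios among *Gzma*, *Srgn*, *Nkg7* and *Ctsw* the groups overlapped. With 2 libraries in a group the smallest p of a two-sided exact permutation test is 0.333, and no test was run on the ratios. Among all genes tested 37.0% had groups that did not overlap in FPKM, and the 4 ratios share their numerator.

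**Figure D4:**
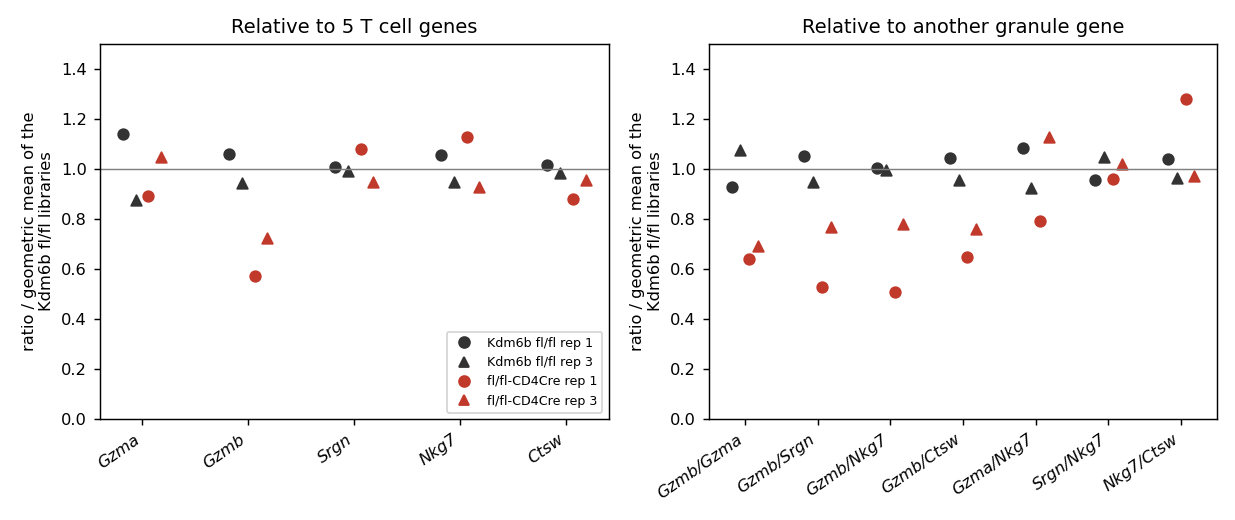
Ratio of each abundant granule gene to the geometric mean of 5 T cell genes (left) and of 7 of the 10 pairs of granule genes (right), each divided by the geometric mean of the ratio in the Kdm6b fl/fl libraries, with black for Kdm6b fl/fl, red for Kdm6b fl/fl-CD4Cre, circles for replicate 1 and triangles for replicate 3. In all 5 ratios with *Gzmb* as numerator both red points lie below both black points.

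The other steps of the granule pathway were read from 4 lists, in which 0 genes were called. Of 15 genes tested for granule maturation and inhibition, 2 lay below and 6 above the control libraries in both Kdm6b-deficient ones (18.6% and 18.4% of all genes tested), with a median log2 fold change of 0.11. *Ctsc*, the protease that trims granzymes to their active form, had 150, 129, 126 and 100 FPKM (log2 fold change −0.30), and *Igf2r*, a receptor that sorts granzymes to lysosomes, had 27.3, 25.4, 24.2 and 18.3 (−0.31). The higher genes with the largest differences were lysosomal ones that many cell types use: *Cd63* had 32.8, 66.9, 73.3 and 149 FPKM (1.14), *Ctsh* 19.7, 24.4, 35.2 and 49.8 (0.91), and *Lamp1* 90.5, 64.0, 125 and 154 (0.86). The median of the list was −0.028 without control replicate 3, 0.052 without Kdm6b-deficient replicate 1, 0.18 without Kdm6b-deficient replicate 3 and 0.53 with T cell scaling, which moved the median of all genes to 0.38. The adjusted p by limma was 0.755 or above for every gene of the 4 lists.

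Of 22 genes tested for granule transport and release, 6 lay below and 3 above the control libraries in both Kdm6b-deficient ones (18.6% and 18.4% of all genes), near the background share, with a median of −0.09. *Coro1a*, an actin regulator of leukocytes, had 1109, 885, 851 and 585 FPKM (log2 fold change −0.49). *Unc13d*, which primes granules for fusion, had 23.7, 20.5, 16.0 and 15.1 FPKM (−0.48), and *Vamp2*, a vesicle SNARE, 43.3, 41.6, 33.6 and 33.4 (−0.33). *Lyst*, which controls the size of granules, had 1.90, 1.31, 2.70 and 2.41 FPKM (0.46), and *Vamp7* and *Vamp8* differed by 0.11 and 0.10. The median of the list was −0.16 without control replicate 3, −0.023 without Kdm6b-deficient replicate 3 and 0.33 with T cell scaling.

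Of 6 death ligands tested, 0 were lower (18.6% of all genes) and 1 higher (18.4%) in both. *Fasl*, the membrane ligand that kills through Fas without granules, had 134, 75.4, 116 and 57.4 FPKM. Both replicate 1 libraries were high, both replicate 3 libraries were low, and the groups overlapped (log2 fold change −0.29, SE 0.42, limma adjusted p = 0.867). *Tnfsf14* had 6.10, 4.26, 7.47 and 6.55 FPKM (0.39). The median of the list, −0.17, was −0.66 without Kdm6b-deficient replicate 1, −0.073 without control replicate 1, −0.096 without control replicate 3 and 0.28 without Kdm6b-deficient replicate 3. It was also positive with T cell scaling (0.19), with the epithelial covariate (0.46) and between Kdm6b-deficient replicate 1 and control replicate 3 (0.56).

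Of 16 regulators of granule genes tested, 13 had a negative log2 fold change (median −0.22), beside 5993 of the 12009 genes and 5 of 5 T cell genes. In both Kdm6b-deficient libraries 3 lay below the control libraries, near the 18.6% of all genes, and 0 above them (18.4%). *Runx3*, a transcription factor of cytotoxic T cells, had 101, 69.1, 67.6 and 40.3 FPKM (log2 fold change −0.67), and *Tcf7*, a transcription factor of naive and memory T cells, had 51.2, 49.6, 46.3 and 27.4 (−0.49). *Il2rb*, the receptor chain shared by IL-2 and IL-15, had 891, 636, 590 and 509 FPKM (−0.46). Their control replicate 3 and Kdm6b-deficient replicate 1 values were close. The median of the list changed sign, to 0.068 without Kdm6b-deficient replicate 3, 0.20 with T cell scaling and 0.23 with the epithelial covariate, and was −0.55 without Kdm6b-deficient replicate 1, −0.38 without control replicate 3 and −0.015 without control replicate 1. *Tbx21*, the T-box factor T-bet, had 84.1, 53.0, 84.2 and 49.0 FPKM and overlapped.

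**Figure D5:**
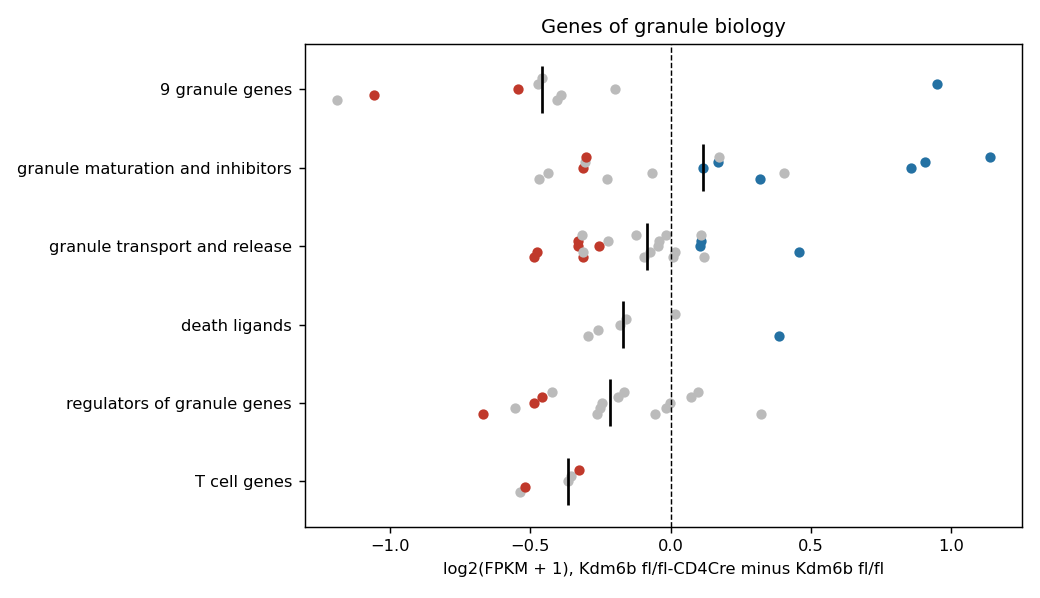
Log2 fold change on log2(FPKM + 1), Kdm6b fl/fl-CD4Cre minus Kdm6b fl/fl, of the genes tested in each list, 1 point a gene, with a black line at the median, red or blue for genes lower or higher in both Kdm6b-deficient libraries and grey for overlap. The median is −0.46 for the 9 granule genes, 0.11 for maturation and inhibitors and −0.37 for the T cell genes, which was −0.61 to −0.12 when each library was left out.

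The genes most like *Gzmb* over the 4 libraries were *Osgin1*, *Zfp251*, *Klra5*, *Klrd1* and *Emid1*, by the root mean square distance between centred log2 values among 6891 genes with a mean of at least 10 FPKM. The distances were from 0.061 to 0.116, and *Osgin1* had 414, 305, 206 and 162 FPKM. *Klra5* and *Klrd1* encode killer cell lectin-like receptors. Those most like *Gzma* were *Rhog*, *Ric8a*, *Crtc2*, *F2r* and *Eml3*, at distances from 0.0108 to 0.04. With 4 libraries and 6891 genes, close profiles can arise by chance, and the likeness was not tested.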

How the data were processed

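The authors sorted TCRαβ+CD8αα+ IELs, pooled RNA of 3 mice a library and had it sequenced. Per the labels, they aligned to mm10 (GRCm38.p5) with Bowtie2 2.2.5 and quantified with RSEM 1.2.8, and the deposited values are FPKM, already scaled to transcript length and mapped fragments. The gene annotation they used is not given in the sources used here. The labels do not say whether libraries came from separate experiments, so the p-values measure the spread between these pools.

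Of 19339 identifiers, 18467 matched a RefSeq symbol. A gene was tested when 2 or more libraries had 1 FPKM or more, as log2(FPKM + 1), so fold changes of low genes are understated, with limma 3.58.1 (R 4.3.3; lmFit and eBayes with trend) in all 4 libraries. It had 3.52 prior and 2 residual degrees of freedom. P-values were adjusted by Benjamini-Hochberg over 12009 genes, with 0.05 as the threshold. The script was tested on simulated data with the same spread for every gene and no link between replicates. That test did not copy the spread of these libraries. Other tables used Python 3.11.15, pandas 2.3.3 and numpy 2.4.6.

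The members, gene lists, T cell scaling and epithelial covariate were chosen with earlier results of these data known, and the promoter motifs after the sequences were seen. Named were all members, *Kdm6b*, *Fasl*, the cluster granzymes, in each granule list up to 3 genes with the largest positive and up to 3 with the largest negative log2 fold change whose groups did not overlap, marker genes needed to state levels, and for *Gzma* and *Gzmb* the nearest 5 genes. *Tbx21*, *Eomes* and *Kit* were named after their values were seen. Alternatives were the pseudocount, the filter, 4 scalings, limma without trend, the replicate block, the covariate, leaving out each library, and Kdm6b-deficient replicate 1 against control replicate 3. No values were found for *Gzmd*, *Gzme*, *Gzmg* or γδ T cell receptor genes, so these were not analysed here.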

Additional observations from a re-analysis of the deposited data

How the results depend on the processing

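*Gzmb* kept its negative log2 fold change in every alternative run, from −1.28 to −0.63 (−1.28 to −0.84 when each library was left out). *Ctsw* kept its own from −0.78 to −0.12 (−0.78 to −0.31 when each library was left out), and *Gzmm* its positive one from 0.63 to 1.62. The other members changed sign. Scaling to T cell genes gave 0.19 for *Gzmc*, 0.017 for *Srgn* and 0.033 for *Nkg7*. The epithelial covariate gave 0.030 for *Gzmc*, 2.09 for *Gzmk*, 0.18 for *Prf1*, 0.048 for *Srgn* and 0.16 for *Nkg7*. Kdm6b-deficient replicate 1 against control replicate 3 gave 0.033 for *Gzma*, 0.072 for *Gzmc*, 2.67 for *Gzmk*, 0.30 for *Prf1*, 0.13 for *Srgn* and 0.25 for *Nkg7*. Leaving out each library in turn gave −4.19 to 1.81 for *Gzmk*, −1.05 to 0.13 for *Prf1*, −0.82 to 0.043 for *Nkg7*, −0.80 to −0.016 for *Srgn*, −0.80 to −0.15 for *Gzma* and −0.39 to −0.015 for *Gzmc*, and assumes that a lone library varies like the other group. The members' median (−0.46) was −0.048 with T cell scaling, 0.048 with the covariate, 0.13 between the libraries most alike in epithelial markers and −0.78 to −0.016 without single libraries. Members higher in both libraries numbered 0 at a filter of 5 FPKM, 2 with T cell scaling, 7 between those libraries and 1 to 2 without single libraries. Members lower in both numbered 2 to 8 without single libraries. The cause of these changes was not tested.

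With the replicate block, limma called 1019 genes (8.49%), 133 (1.11%) of them lower, with *Gzmb* (adjusted p = 0.0024) and *Ctsw* (adjusted p = 0.0327) among them. Deviations of same-numbered libraries correlated across genes (r = 0.56), but the labels do not say that a number marks a shared preparation, and 2 pairs cannot show it. The covariate called 46 genes on 1 residual degree of freedom.

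The estimated depth of 11040000 to 13320000 fragments limits *Gzmm*, at about 8.92 fragments in its lowest library.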
